A study of Mus musculus with 16 samples.

Results

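A list of 10 genes that mark astrocytes and radial glia was followed through cells sorted as GABAergic from the newborn mouse brain: Gja1, Slc1a2, Slc1a3, Glul, Fabp7, Dbi, Apoe, Aldoc, Vim and Gfap. They were found on the arrays by gene name or older synonym among the spots that are not controls, which gave 20 probes of 41174 and 10 genes of 28655. Slc1a2 had 5 probes, Glul had 3, and Aldoc, Gfap, Slc1a3 and Vim had 2 each, while the other 4 genes had 1 probe each. One probe of Slc1a2 was found through the older name 2900019G14Rik. Each gene is described by its brightest probe unless another probe is named. All 10 genes passed the filter on dim spots that left 27262 genes to test, as did 19 of the 20 probes. The exception was a second Vim probe, which was well above background in the sorted cells on 0 of 16 arrays.

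Radial glia are the progenitor cells that line the ventricles of the embryonic brain, guide migrating neurons and give rise to neurons and, around birth, to astrocytes. Astrocytes take up glutamate released at synapses, turn it into glutamine, couple to each other through gap junctions and supply lipids to neurons. GABAergic neurons share ancestors with these cells but have a transmitter machinery of their own, and glial transcripts are a usual check of how clean a neuronal sort is.

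The sorted groups came from GAD67-eGFP mice on a C57Bl/6 background at postnatal day 1, in which green fluorescent protein is driven by the gene for glutamate decarboxylase 67, Gad1. Fluorescent cells came from whole brain (4 arrays, 4 mice dissected) or from 1 of 4 dissected regions, the olfactory bulb, the cortex, the striatum or the cerebellum (3 arrays a region, 6 mice dissected). Every array carried amplified cDNA of the sorted cells in Cy5 beside amplified cDNA of a common total brain reference, made from 4 mice of the same age, in Cy3. Whether samples of different regions share animals is not given in the sources used here, so p-values measure the spread between these samples. A log2 ratio below 0 means a lower signal in the sorted cells than in the reference. Fewer glial cells in a sample and less glial RNA per cell cannot be told apart in such bulk samples.

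The sorted-cell markers were checked first. Gad1 was higher than in the reference in all 4 regions, by 0.79 to 0.91 on the log2 scale, but in whole brain it was at -1.51 ± 0.08 (SE, n = 4 arrays, limma adjusted p = 1.025e-12). Gad2, which encodes the other glutamate decarboxylase, was also lower there (-0.28 ± 0.07, adjusted p = 0.001119), although higher in the 4 regions by 0.90 to 1.89. The whole-brain libraries thus go against their label for the gene behind the sort, while Dlx1, a homeobox gene of ventral forebrain GABAergic cells, was higher there by 1.71. Comparisons among regions were therefore also fitted on the 12 regional arrays alone, and 50 of 50 values kept their direction and call. All whole-brain arrays were scanned in 1 session and all regional arrays in another. The share of spots well above background was 78.1% to 96.6% for sorted cells and 72.1% to 90.7% for the reference. Arrays of 1 group correlated across genes, which are not independent replicates, at Pearson's r from 0.936 to 0.992.

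Promoter sequences of 4 of the genes are shown by the 250 bases before the start of their transcription in RefSeq (GRCm38.p6). Gja1, Fabp7 and Slc1a3 had their lowest regional mean in cortex, as did Slc1a2, Aldoc and Dbi, which are not shown. Vim had its lowest in olfactory bulb, which did not differ from cortex by the test (adjusted p = 0.1136). All 10 genes matched an entry. The sequences run 5′ to 3′ on the strand of the gene, and capitals mark TTGGC or its reverse complement GCCAA, the half-site bound by nuclear factor I proteins.
Gja1, chr10:56377050-56377299, plus strand: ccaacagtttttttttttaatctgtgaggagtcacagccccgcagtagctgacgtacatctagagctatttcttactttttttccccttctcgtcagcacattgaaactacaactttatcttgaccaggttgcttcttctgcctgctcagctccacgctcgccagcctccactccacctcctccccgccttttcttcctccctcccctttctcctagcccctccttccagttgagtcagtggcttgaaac
Fabp7, chr10:57784673-57784922, plus strand: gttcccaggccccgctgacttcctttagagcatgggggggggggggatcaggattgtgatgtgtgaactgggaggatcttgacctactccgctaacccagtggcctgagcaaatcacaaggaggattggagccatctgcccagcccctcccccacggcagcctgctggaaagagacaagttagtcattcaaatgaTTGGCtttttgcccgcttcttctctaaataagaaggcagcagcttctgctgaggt
Slc1a3, chr15:8710808-8711057, minus strand: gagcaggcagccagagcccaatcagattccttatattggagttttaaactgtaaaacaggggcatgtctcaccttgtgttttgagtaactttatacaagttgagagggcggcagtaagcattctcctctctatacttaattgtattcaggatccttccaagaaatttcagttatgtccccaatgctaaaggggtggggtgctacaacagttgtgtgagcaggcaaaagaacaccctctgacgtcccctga
Vim, chr2:13574061-13574310, plus strand: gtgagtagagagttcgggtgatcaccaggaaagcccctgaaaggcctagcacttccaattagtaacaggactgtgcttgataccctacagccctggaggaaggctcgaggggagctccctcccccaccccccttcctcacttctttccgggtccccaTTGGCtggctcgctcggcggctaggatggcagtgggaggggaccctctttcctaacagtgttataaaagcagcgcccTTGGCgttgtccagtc
The capitals appear 0 times in the Gja1 window, 1 time in the Fabp7 window, 0 times in the Slc1a3 window and 2 times in the Vim window. Of 32851 RefSeq windows of the same length, 41.5% hold this motif on either strand. The TATA box sequence (TATAAA or TTTATA, counted at any position) was found in the Slc1a3 and Vim windows and in 12.4% of all windows. In Slc1a3 it was the reverse form TTTATA. The GC box sequence (GGGCGG or CCGCCC, also at any position) was found in the Slc1a3 window and in 32.7% of all windows. None of these 3 motifs was found in all of the Gja1, Fabp7 and Slc1a3 windows, and the Gja1 window held none of them. In the windows not shown, the half-site was found 1 time for Slc1a2, Aldoc and Apoe, 2 times for Glul and 0 times for Dbi and Gfap. In the same annotation Gja1 and Fabp7 lie on chromosome 10, at 56377300 to 56390419 and 57784923 to 57788450, Slc1a3 on chromosome 15 at 8634124 to 8710807 and Vim on chromosome 2 at 13574311 to 13582826.

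Set against the total brain reference, the glial genes were low in every sort. In whole-brain GABAergic cells 9 of 10 were lower (limma, adjusted p under 0.05, where 34.5% of all 27262 genes were lower), and Apoe was not called. In olfactory bulb 10 of 10 were lower (31.2% of all genes), in cortex 10 of 10 (31.5%), in striatum 10 of 10 (31.4%) and in cerebellum 10 of 10 (33.2%). The median log2 ratio of the 10 genes was -1.63 in whole brain, where the median over all genes was 0.09. It was -1.72 for olfactory bulb (0.03 over all genes), -2.37 for cortex (0.04), -1.05 for striatum (0.03) and -1.48 for cerebellum (0.08). Gja1 was the lowest member in whole brain, at -4.45 (-6.13 to -3.66 over the alternatives run), and also in cortex and cerebellum. Aldoc was lowest in olfactory bulb (-3.02) and striatum (-2.43). Gfap stayed within 1.5-fold of the reference in every group. It was the highest member in olfactory bulb, cortex and striatum, while Apoe was highest in whole brain (-0.01) and Slc1a2 in cerebellum (-0.39). To place regions in order for each gene, they were also compared in pairs. Between single pairs of regions, the share of all genes called was 16.4% for olfactory bulb and cortex, 27.7% for olfactory bulb and striatum, 39.8% for olfactory bulb and cerebellum, 18.8% for cortex and striatum, 26.0% for cortex and cerebellum, and 38.8% for striatum and cerebellum.

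**Figure D1:**
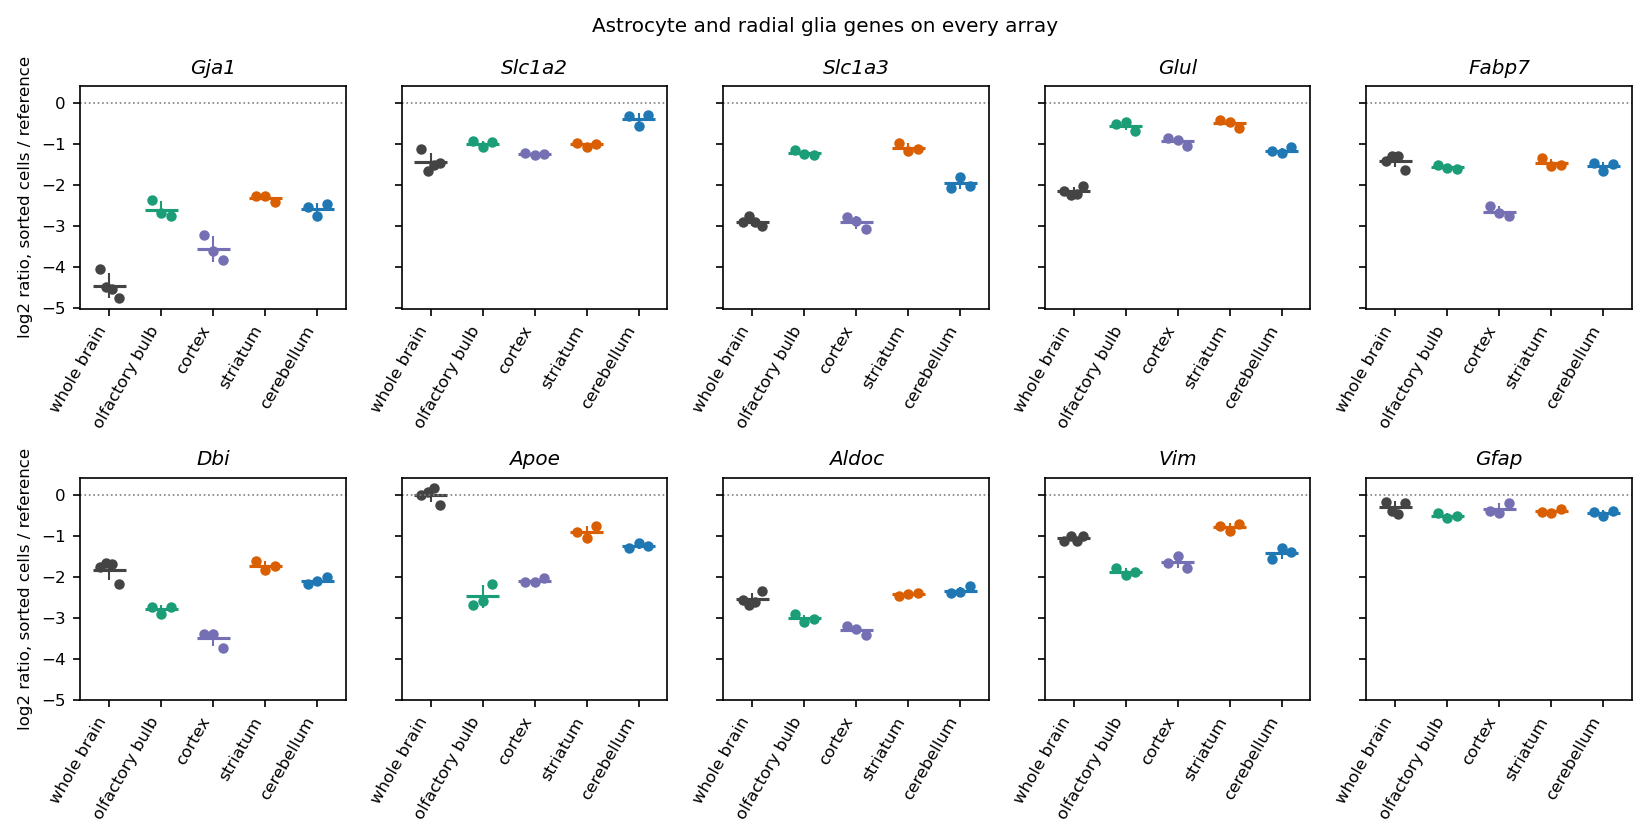
The log2 ratio of sorted cells over the total brain reference (y axis, brightest probe of each gene) is plotted for each of the 16 arrays by group. Points are arrays, horizontal bars are group means and vertical lines are SDs. Gja1 falls lowest, at -4.45 in whole brain, Apoe in whole brain lies at the reference, and Gfap is level across groups.

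Gja1 encodes connexin 43, the main gap junction protein of astrocytes and radial glia. Its log2 ratio on the 4 whole-brain arrays was -4.04, -4.49, -4.52 and -4.76. On regional arrays it was -2.37, -2.67 and -2.75 in olfactory bulb, -3.21, -3.61 and -3.83 in cortex, -2.26, -2.26 and -2.41 in striatum, and -2.53, -2.74 and -2.46 in cerebellum. All whole-brain arrays were lower than all regional arrays, and the cortex arrays lay below those of the other regions. The whole-brain mean was -4.45 ± 0.10 (SE, adjusted p = 1.253e-18). Its spots in the sorted cells were dim, at 87.2 to 112.4 scanner units in whole brain and 82.5 to 102.2 in cortex, against 522.3 to 934.1 and 549.6 to 694.8 in the reference channel of the same arrays. On 15 of 16 arrays they were well above background, whole-brain replicate 1 being the exception. The size of the difference depended on the processing. The scanner software's own ratio put it at -6.13 in whole brain and -5.11 in cortex, where it was -4.45 and -3.55 here, and scaling between arrays put whole brain at -3.66.

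**Figure D2:**
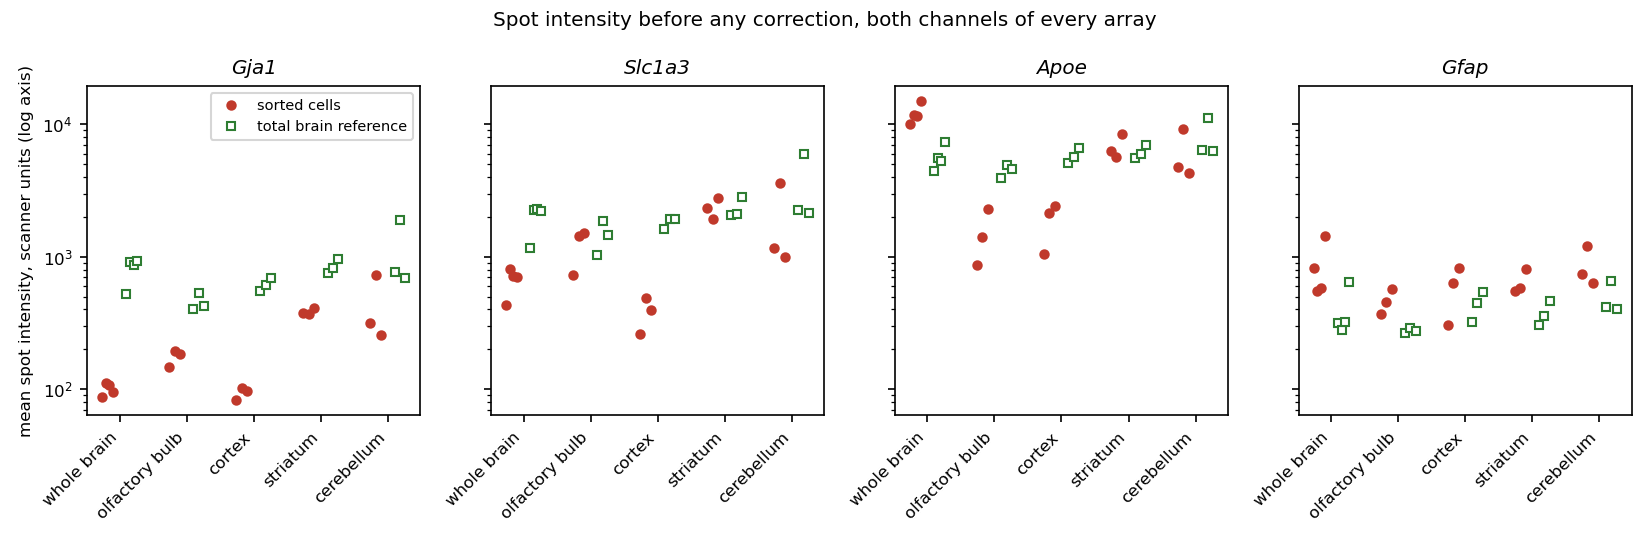
Mean spot intensity in scanner units before any correction (y axis, log scale) is shown for sorted cells (filled red circles) and the total brain reference (open green squares) of every array, for Gja1, Slc1a3, Apoe and Gfap. Overall brightness differed between channels and between arrays (median sorted-cell signal 150.9 to 717.5), so neither the gap between channels nor the change between groups is a difference in expression here. The picture shows how bright each spot was, with Gja1 of sorted cells at 82.5 to 112.4 in whole brain and cortex.

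The members Slc1a3, Slc1a2 and Glul serve the uptake and recycling of glutamate. Slc1a3 encodes GLAST, the glutamate transporter of radial glia and early astrocytes. It was at -2.91, -2.74, -2.91 and -2.99 in whole brain and -2.77, -2.88 and -3.08 in cortex. It was at -1.15, -1.23 and -1.27 in olfactory bulb, -0.97, -1.18 and -1.11 in striatum, and -2.07, -1.79 and -2.01 in cerebellum. The arrays thus fell into 3 levels, with whole brain and cortex low, cerebellum between, and olfactory bulb and striatum high and overlapping. The difference of cortex from the other 3 regions was -1.49 ± 0.08 (SE, adjusted p = 1.061e-09), and almost all of it lay in the sorted-cell channel, at -1.51, beside -0.02 in the reference channel.

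Slc1a2 encodes GLT-1, the glutamate transporter that comes to dominate in mature astrocytes. Its values were -1.12, -1.66, -1.52 and -1.45 in whole brain, -0.93, -1.07 and -0.96 in olfactory bulb, -1.22, -1.26 and -1.24 in cortex, -0.97, -1.06 and -1.0 in striatum, and -0.31, -0.57 and -0.30 in cerebellum. Cerebellum stood above the other regions without overlap, by 0.69 ± 0.09 over their mean (SE, adjusted p = 1.025e-05). Part of this difference lay in the reference channel, at -0.24, beside 0.45 in the sorted-cell channel. The order among the other 3 regions was not resolved, since no pair of them passed the test (adjusted p from 0.1325 to 0.8996).

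Glul encodes glutamine synthetase, which converts the glutamate taken up. It was at -2.14, -2.25, -2.21 and -2.02 in whole brain, -0.52, -0.46 and -0.68 in olfactory bulb, -0.86, -0.91 and -1.04 in cortex, -0.41, -0.45 and -0.60 in striatum, and -1.18, -1.22 and -1.08 in cerebellum. The whole-brain arrays were lowest by a wide margin. Among regions cerebellum was lower than the mean of the other 3 (-0.50 ± 0.08, SE, adjusted p = 4.088e-05), where Slc1a2 was higher. For Glul, cerebellum was not resolved from cortex (cortex minus cerebellum 0.23 ± 0.09, adjusted p = 0.07928). Olfactory bulb and striatum did not differ beyond their spread (-0.07 ± 0.09, adjusted p = 0.633), and under median centring neither was called lower than the reference (-0.18 and -0.16).

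The next 3 members bind or carry lipids. Fabp7, the brain lipid-binding protein of radial glia, was at -1.40, -1.30, -1.29 and -1.63 in whole brain, -1.52, -1.59 and -1.60 in olfactory bulb, -2.50, -2.67 and -2.76 in cortex, -1.35, -1.54 and -1.50 in striatum, and -1.47, -1.65 and -1.48 in cerebellum. Only the cortex arrays stood apart, at -1.12 ± 0.08 from the other 3 regions (SE, adjusted p = 5.473e-08), while olfactory bulb, striatum and cerebellum overlapped and no pair of these passed the test (adjusted p from 0.4694 to 0.7855). The signal in sorted cells was well over background on all 16 arrays, at 853.5 to 8594 scanner units.

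Dbi encodes the acyl-CoA-binding protein, also known as diazepam-binding inhibitor. It had the brightest spots of the members, and its values were -1.77, -1.66, -1.70 and -2.19 in whole brain, -2.73, -2.91 and -2.75 in olfactory bulb, -3.39, -3.40 and -3.73 in cortex, -1.63, -1.83 and -1.73 in striatum, and -2.19, -2.11 and -2.01 in cerebellum. The 4 regions formed a full order, in which striatum was highest, then cerebellum, olfactory bulb and cortex. Each step passed the test, at 0.37 ± 0.13 (adjusted p = 0.02501) for striatum minus cerebellum, -0.69 ± 0.13 (adjusted p = 0.0002479) for olfactory bulb minus cerebellum, and 0.71 ± 0.13 (adjusted p = 0.0008281) for olfactory bulb minus cortex.

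Apoe encodes apolipoprotein E, the lipid carrier secreted by astrocytes and also made by microglia. It was at -0.01, 0.07, 0.16 and -0.25 in whole brain, which is the level of the reference (-0.01 ± 0.08, adjusted p = 0.9231). In the regions it was at -2.68, -2.59 and -2.17 in olfactory bulb, -2.14, -2.14 and -2.03 in cortex, -0.91, -1.06 and -0.77 in striatum, and -1.31, -1.17 and -1.26 in cerebellum. Every regional array was under every whole-brain array, and striatum and cerebellum lay above cortex and olfactory bulb. The whole-brain value moved to 0.35 when arrays were centred on their median in place of loess. Of the 8 microglia markers measured, 0 were higher and 7 lower in olfactory bulb than in the other 3 regions, and 5 were higher and 1 lower in striatum. The mean log2 ratio of this list was -0.11 to 0.03 on whole-brain arrays, -0.99 to -0.76 in olfactory bulb, -0.57 to -0.52 in cortex, -0.22 to -0.13 in striatum and -0.20 in cerebellum. The list mean thus moved with Apoe, but not every gene in it did. Cx3cr1 was not called for any region against the other 3, and Aif1 was lower in striatum (-0.29 ± 0.09, limma adjusted p = 0.01572). The part of this list in the Apoe result was not tested.

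Aldoc encodes aldolase C, the brain form of a glycolytic enzyme, found in astrocytes and in Purkinje cells. Its values were -2.56, -2.69, -2.63 and -2.34 in whole brain, -2.92, -3.10 and -3.03 in olfactory bulb, -3.20, -3.27 and -3.42 in cortex, -2.47, -2.43 and -2.40 in striatum, and -2.40, -2.38 and -2.24 in cerebellum. All arrays were more than 4-fold under the reference, which placed Aldoc with Gja1 among the lowest members. Striatum and cerebellum did not differ beyond their spread (striatum minus cerebellum -0.10 ± 0.10, adjusted p = 0.4702), nor did olfactory bulb and cortex (olfactory bulb minus cortex 0.28 ± 0.10, adjusted p = 0.05914), while the first pair of regions lay above the second.

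Vim and Gfap encode the intermediate filaments vimentin, of radial glia and immature astrocytes, and glial fibrillary acidic protein, of mature astrocytes. Vim was at -1.13, -1.0, -1.13 and -1.01 in whole brain, -1.80, -1.96 and -1.88 in olfactory bulb, -1.66, -1.49 and -1.79 in cortex, -0.76, -0.90 and -0.72 in striatum, and -1.57, -1.30 and -1.41 in cerebellum. Striatum was above the mean of the other 3 regions by 0.86 ± 0.08 (SE, adjusted p = 4.537e-07), and no striatum array overlapped those of another region. Gfap was at -0.18, -0.40, -0.47 and -0.20 in whole brain, -0.45, -0.57 and -0.53 in olfactory bulb, -0.40, -0.46 and -0.20 in cortex, -0.43, -0.44 and -0.35 in striatum, and -0.42, -0.53 and -0.40 in cerebellum. The groups overlapped, and Gfap, although under the reference in each, was lower by no more than a factor of 1.43 (olfactory bulb, adjusted p = 1.074e-06). Under median centring its whole-brain value turned to 0.24, and its values in olfactory bulb, cortex and striatum, at -0.02, -0.09 and -0.06, were no longer called.

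Whether the glial genes differed among GABAergic cells of the 4 regions was tested next. By a moderated F test 9 of 10 differed, where 57.5% of all genes did, and Gfap was the exception (range of region means 0.16, adjusted p = 0.4626). A range of region means of at least 1 on the log2 scale together with the F test was met by 6 of 10 members (Slc1a3, Dbi, Apoe, Gja1, Fabp7 and Vim), against 3.77% of all genes. The range was 1.82 for Slc1a3 (adjusted p = 1.633e-10), 1.78 for Dbi (adjusted p = 9.202e-09) and 1.24 for Gja1 (adjusted p = 2.83e-05). The order of these ranges depended on the background step, since that of Gja1 was 2.58 with the scanner's own ratio and 2.41 with offset 0.

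Cortex was the low region. Against the mean of the other 3 regions, 8 of 10 members were lower in cortex (6.03% of all genes) and 0 of 10 higher (4.45%), with a median of -0.63. The difference was -1.49 for Slc1a3, -1.30 for Dbi, -1.12 for Fabp7 and -1.05 for Gja1, and Glul and Gfap were not called. Gja1 was at -2.21 with the scanner's own ratio and -2.09 with offset 0. On the sorted-cell channel alone 5 of 10 were lower in cortex, as Slc1a2 (adjusted p = 0.187), Vim (0.06924) and Apoe (0.06506) were not called. Vim passed narrowly (-0.28 ± 0.08, adjusted p = 0.02846) and lost the call without cortex replicate 1 or without cortex replicate 3 (adjusted p = 0.1198 and 0.1929). Markers of other cells in the same contrast, where 6.03% of all genes were lower and 4.45% higher, were lower in cortex for 5 of 7 oligodendrocyte lineage genes, 3 of 8 microglia genes, 3 of 8 meninges and choroid plexus genes and 5 of 8 cell cycle genes, with 0 higher in each list. Of 8 endothelial and mural cell genes, 2 were higher (Flt1 by 0.65 ± 0.18 and Pdgfrb by 0.35 ± 0.10) and 1 lower (Cldn5 at -0.50 ± 0.11). Their part in the members' values was not tested.

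Striatum was the high region. There 8 of 10 members were higher than in the other 3 regions (13.6% of all genes) and 0 of 10 lower (16.7%), with a median of 0.53. Dbi was higher by 1.07 ± 0.10, Apoe by 1.03 ± 0.10, Slc1a3 by 0.94 ± 0.08 and Vim by 0.86 ± 0.08 (SE, adjusted p from 2.753e-07 to 1.055e-06), and Slc1a2 and Gfap were not called. Gja1 and Aldoc lost their calls in striatum when arrays were scaled to each other (adjusted p = 0.08986 and 0.5156), and Slc1a3 did with the mean of its probes (adjusted p = 0.2447). Even so each of the 10 stayed under the reference in striatum. In the same contrast 4 of 7 oligodendrocyte lineage genes, 5 of 8 microglia genes, 2 of 8 meninges and choroid plexus genes and 4 of 8 cell cycle genes and 3 of 8 endothelial and mural cell genes were higher in striatum (13.6% of all genes). Lower there were 1 oligodendrocyte lineage, 1 microglia and 1 endothelial and mural cell gene (16.7% of all genes), and the part of these lists was not tested.

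Olfactory bulb and cerebellum were mixed. In olfactory bulb 3 of 10 members were higher (13.8% of all genes), namely Slc1a3 by 0.77 ± 0.08, Fabp7 by 0.31 ± 0.08 and Glul by 0.31 ± 0.08, and 4 of 10 were lower (16%), namely Apoe at -1.06 ± 0.10, Vim at -0.59 ± 0.08, Dbi at -0.35 ± 0.10 and Aldoc at -0.33 ± 0.08. The calls on Fabp7 and Dbi were each lost when 1 olfactory bulb array was left out, replicate 1 for Fabp7 (adjusted p = 0.05057) and replicate 2 for Dbi (adjusted p = 0.09481). In cerebellum 5 of 10 were higher (24.0% of all genes), with Slc1a2 at 0.69 ± 0.09, Apoe at 0.59 ± 0.10, Dbi at 0.58 ± 0.10, Aldoc at 0.58 ± 0.08 and Fabp7 at 0.36 ± 0.08, and 2 of 10 were lower (16.5%), Glul at -0.50 ± 0.08 and Slc1a3 at -0.22 ± 0.08. Under median centring Apoe, Dbi and Fabp7 were no longer called in cerebellum, nor Dbi and Aldoc in olfactory bulb (adjusted p from 0.08947 to 0.7625). Gja1 was not called in cerebellum (0.24 ± 0.13, adjusted p = 0.1558) but was at 0.72 to 0.78, and called, with the scanner's own ratio, offset 0 or scaling (adjusted p from 1.531e-05 to 0.0003474). The Slc1a3 call in cerebellum (adjusted p = 0.04118) was lost when any 1 of 6 arrays was left out (cerebellum replicates 1 or 3, cortex 1 or 2, striatum 1, olfactory bulb 1; adjusted p up to 0.212).

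**Figure D3:**
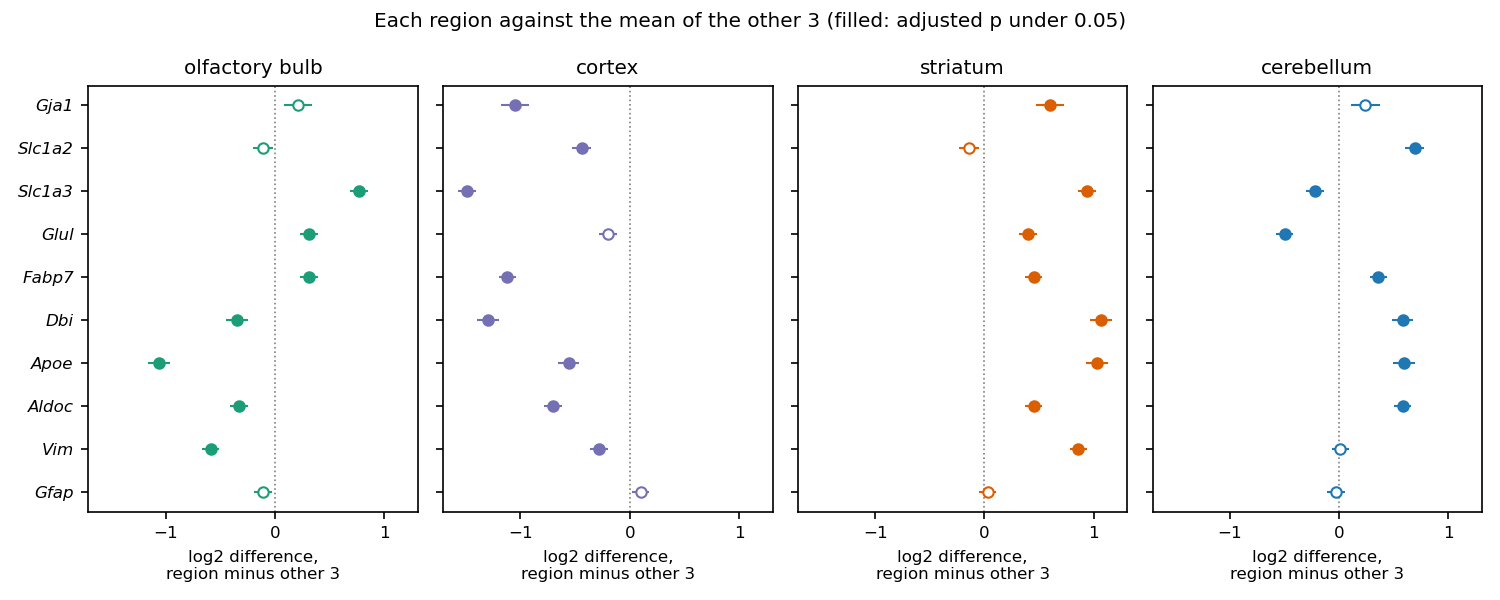
The log2 difference of each region from the mean of the other 3 regions (x axis) is shown for the 10 genes (rows), with SE bars from limma. Filled points passed an adjusted p of 0.05. In cortex the called points are all below 0 (8 of 10 genes) and in striatum all above 0 (8 of 10 genes), while Gfap lies near 0 in all 4 panels.

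The split by channel was computed after these results were seen. Most differences among regions lay in the sorted cells. For Dbi in striatum the sorted channel moved by 0.91 and the reference channel by -0.16, and for Apoe in olfactory bulb by -0.99 and 0.07. Exceptions included Aldoc in olfactory bulb, with -0.09 in the sorted channel and 0.24 in the reference channel. Another was Slc1a2 in olfactory bulb minus cerebellum (-0.60), with -0.19 in the sorted channel and 0.41 in the reference channel.

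Whole-brain cells differed from the regional cells in both directions. Against the mean of the 4 regions, 5 of 10 members were higher (31.3% of all genes) and 4 of 10 lower (30.5%), and here the scan session and the group cannot be told apart. Apoe was higher by 1.68 ± 0.09 (adjusted p = 1.741e-12), Dbi by 0.70 ± 0.09, Fabp7 by 0.40 ± 0.07, Vim by 0.37 ± 0.07 and Aldoc by 0.21 ± 0.07, the last not called without whole-brain replicate 4 (adjusted p = 0.0779). Gja1 was at -1.70 ± 0.11 (adjusted p = 9.46e-11), Glul at -1.37 ± 0.07 (adjusted p = 4.463e-13), Slc1a3 at -1.09 ± 0.07 and Slc1a2 at -0.53 ± 0.08. With the mean of all probes Slc1a2 turned to 0.04, and Slc1a3 at -0.02 and Aldoc at 0.06 were not called (adjusted p = 0.8373 and 0.5168). Scaling between arrays moved Gja1 to -0.71, Slc1a3 to -0.48 and Aldoc to 0.88, and on the sorted-cell channel alone Vim was not called (adjusted p = 0.07793). Gfap was not called here (0.12 ± 0.07, adjusted p = 0.127) but was called higher in whole brain, by 0.20 to 0.34, with the scanner's own ratio, offset 0, median centring or scaling (adjusted p from 0.002978 to 0.03276).

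Probes of a gene did not always move alike. The second Slc1a3 probe, designed on another cDNA, was higher than the reference by 1.49 ± 0.07 in whole brain (adjusted p = 1.767e-13) and 1.51 ± 0.08 in olfactory bulb (adjusted p = 4.072e-12), where the brightest Slc1a3 probe was at -2.89 and -1.22. In cortex, striatum and cerebellum this Slc1a3 probe was at 0.02, -0.07 and 0.29. Against the mean of the other 3 regions, both Slc1a3 probes were higher in olfactory bulb and lower in cortex (-0.56 ± 0.10 for the second), but in striatum they went opposite ways, at -0.68 ± 0.10 for the second and 0.94 ± 0.08 for the brightest. The lowest mean of the second probe was in striatum (-0.07), beside 0.02 in cortex, and these did not differ by the test (adjusted p = 0.6477).

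Of the Slc1a2 probes, A_52_P311194 was above the reference in every group, by 0.98 to 1.41, where the brightest probe of Slc1a2 was below it. One spot of this probe, on cortex replicate 1, was left out by the scanner's flags, so its cortex value of 1.38 rests on 2 arrays. Of the Glul probes, A_52_P101279 was at 0.30 ± 0.08 in whole brain (adjusted p = 0.001699) against -2.15 for the brightest Glul probe. In the regions it ran from -1.18 to -0.40 and placed cerebellum lowest, as the brightest Glul probe did. When all probes of a gene were averaged, Slc1a3 in olfactory bulb turned to 0.15, and Slc1a2 and Slc1a3 in whole brain moved to -0.19 and -0.70. The second Aldoc probe was lower in every group but closer to the reference, at -1.10 to -0.80, and did not pass the F test among regions (adjusted p = 0.407). By the same test the second Gfap probe did not differ among regions either (range of region means 0.48, adjusted p = 0.1216). Slc1a2 probe A_52_P178651 did, with a range of 1.01 (adjusted p = 4.107e-07), as did A_51_P179878 (0.32, adjusted p = 0.03885). Slc1a2 probe A_51_P477875 did not (0.25, adjusted p = 0.3242). Glul probe A_51_P441798 did (0.44, adjusted p = 0.003079). The statements on Slc1a2, Slc1a3, Glul, Aldoc and Gfap therefore hold for the brightest probe.

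**Figure D4:**
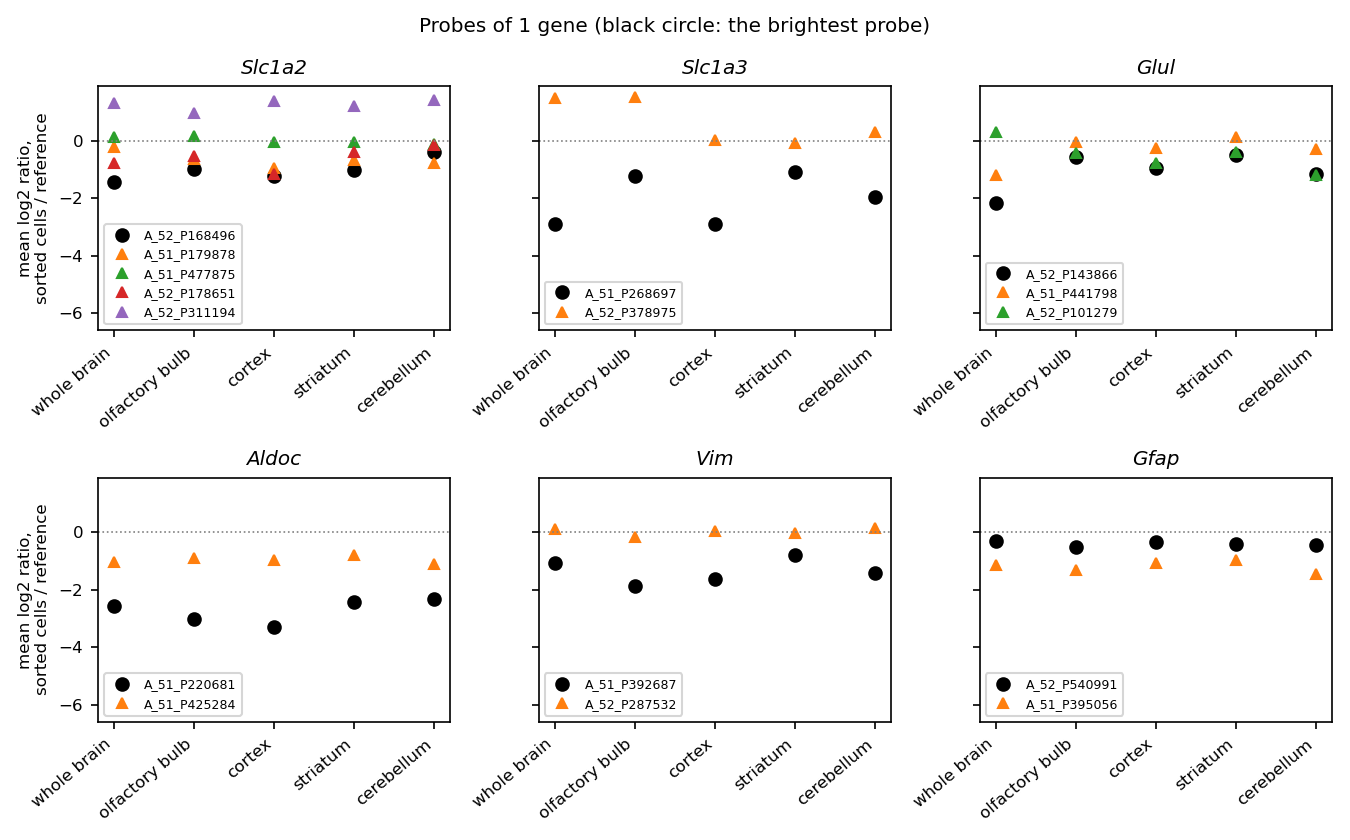
Mean log2 ratio of sorted cells over reference (y axis) by group for every probe of the 6 genes that have more than 1 probe. Black circles are the brightest probe of each gene and coloured triangles the others, with no error drawn. One Slc1a2 probe, at 0.98 to 1.41, and the second Slc1a3 probe, at 1.49 in whole brain, lie above 0 where the brightest probe lies below.

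How alike the members were across regions is given as a description over the 12 regional arrays, which fall into 4 groups of 3 and share the reference. Gja1 and Fabp7 were most alike (Pearson's r = 0.962), then Aldoc and Dbi (0.947), Vim and Apoe (0.884) and Slc1a3 and Fabp7 (0.884). The 2 glutamate transporters were not alike (Slc1a2 and Slc1a3, 0.168), and Slc1a2 and Glul ran against each other (-0.512). Among the genes with a RefSeq symbol, a value on all 12 arrays and a range of region means of at least 1 (783 or 784 candidates for each member), the 3 most like Gja1 were Fabp7, Igf2 (0.935) and Vtn (0.882). Those most like Apoe were Tyrobp (0.971), Jchain (0.947) and Cks1b (0.939), of which Tyrobp is a microglial signalling adaptor. Those most like Glul were Slc38a2 (0.957), a glutamine transporter, Pak1ip1 (0.942) and Patl1 (0.938). For Slc1a2 they were Prkcb (0.966), Zic5 (0.966) and Lamb1 (0.956).

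Other genes of the same cells and pathways were then counted. Of 25 further astrocyte genes, 17 were lower and 5 higher than the reference in whole brain, where 45.2% of all genes were higher. The counts were 18 lower and 6 higher in olfactory bulb (36.7% of all genes higher), 17 and 6 in cortex (38.0%), 17 and 7 in striatum (36.1%) and 20 and 5 in cerebellum (42.8%). Their median ran from -0.93 in olfactory bulb to -0.48 in whole brain. In whole brain Cspg5, a proteoglycan, was lowest at -3.16 ± 0.07 and Id4, a transcriptional regulator, next at -1.98 ± 0.06, while S100b, a calcium-binding protein, at 0.94 ± 0.10 and Slc6a9, a glycine transporter, at 0.89 ± 0.06 were higher. Astrocyte genes as a class were therefore not all low.

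Of the 17 other radial glia and progenitor genes, 9 were lower and 7 higher in whole brain, where 34.5% of all genes were lower and 45.2% higher. In the regions 7 to 9 were lower and 6 to 8 higher, where 31.2% to 33.2% of all genes were lower and 36.1% to 42.8% higher. In cortex Hes1, a Notch target, was at -2.29 ± 0.08 and Tnc, the matrix protein tenascin C, at -1.81 ± 0.08. Sox2, a progenitor transcription factor, was higher there by 1.67 ± 0.07 and Ccnd2, a cyclin, by 0.99 ± 0.06. The list median in cortex was 0.12, against -2.37 for the 10 members.

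Relatives of the members gave mixed values. The counts below stand beside shares of 34.5% of all genes lower and 45.2% higher in whole brain. In the regions 31.2% to 33.2% of all genes were lower. Of 12 further genes of glutamate and glutamine handling, 9 were lower and 2 higher in whole brain, with the neuronal transporter Slc1a1 higher by 0.79 ± 0.06. Of 7 further connexins, 3 were lower and 2 higher in whole brain, and Gjb6, the connexin 30 of astrocytes, was at 0.44 ± 0.11 in whole brain but at -1.90 to -1.29 in the regions. Of 9 other intermediate filament genes 5 were lower and 4 higher in whole brain, and Nes, the progenitor filament nestin, was at 0.24 in whole brain and -0.07 to 0.36 in the regions. Of 12 further glycolysis genes measured, 9 were lower and 1 higher in whole brain and 10 or 11 were lower in each region, with Aldoa, the more widely expressed aldolase, at -1.74 to -0.82 across the 5 groups. Of 14 genes of lipid binding and transport, 9 were lower and 2 higher in whole brain, and Apod, apolipoprotein D, was at -4.18 ± 0.07.

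Markers of other cells are set beside these values. Over all genes, 34.5% were lower and 45.2% higher than the reference in whole brain. In the regions the shares were 31.2% to 33.2% lower and 36.1% to 42.8% higher. All 7 GABAergic neuron genes were higher than the reference in 3 of the regions, 6 of 7 in cerebellum and 5 of 7 in whole brain, where the other 2, Gad1 and Gad2, were lower. Of 6 glutamatergic neuron genes, 5 were lower in whole brain, olfactory bulb, cortex and striatum and 4 in cerebellum. Neurod1 was higher in olfactory bulb (0.24), striatum (0.29) and cerebellum (1.68), and Neurod2 was higher in cerebellum (0.18). Of 8 endothelial and mural cell genes, 7 or 8 were lower in every group, and of 7 oligodendrocyte lineage genes 5 or 6 were. Pecam1 of the first list was higher in whole brain (0.36 ± 0.06). Cspg4 of the second list was higher in all 5 groups, by 0.27 to 0.64. Of 8 meninges and choroid plexus genes 5 or 6 were lower in each group, with Ptgds, a prostaglandin synthase, at -4.30 to -3.05. Not all of this list were low. Ttr was higher than the reference in striatum (1.33 ± 0.13), although lower in the other groups. Folr1 was higher in whole brain (0.29), cortex (0.43), striatum (0.43) and cerebellum (0.71), and lower in olfactory bulb (-0.43). Of 8 microglia genes 4 were lower and 4 higher in whole brain, and 7 were lower in olfactory bulb, 5 in cortex and 4 in striatum and in cerebellum. C1qb and P2ry12 were higher than the reference in cortex (0.36 and 0.32), striatum (0.33 and 0.46) and cerebellum (0.82 and 0.21). Of 8 cell cycle genes, 3 were higher and 4 lower in whole brain, 1 higher and 4 lower in olfactory bulb, 1 higher and 3 lower in cortex, 5 higher and 1 lower in striatum, and 4 higher and 0 lower in cerebellum. The mean of the 10 members was -1.88 to -1.73 on whole-brain arrays, -1.81 to -1.71 in olfactory bulb, -2.31 to -2.13 in cortex, -1.32 to -1.22 in striatum and -1.55 to -1.46 in cerebellum.

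**Figure D5:**
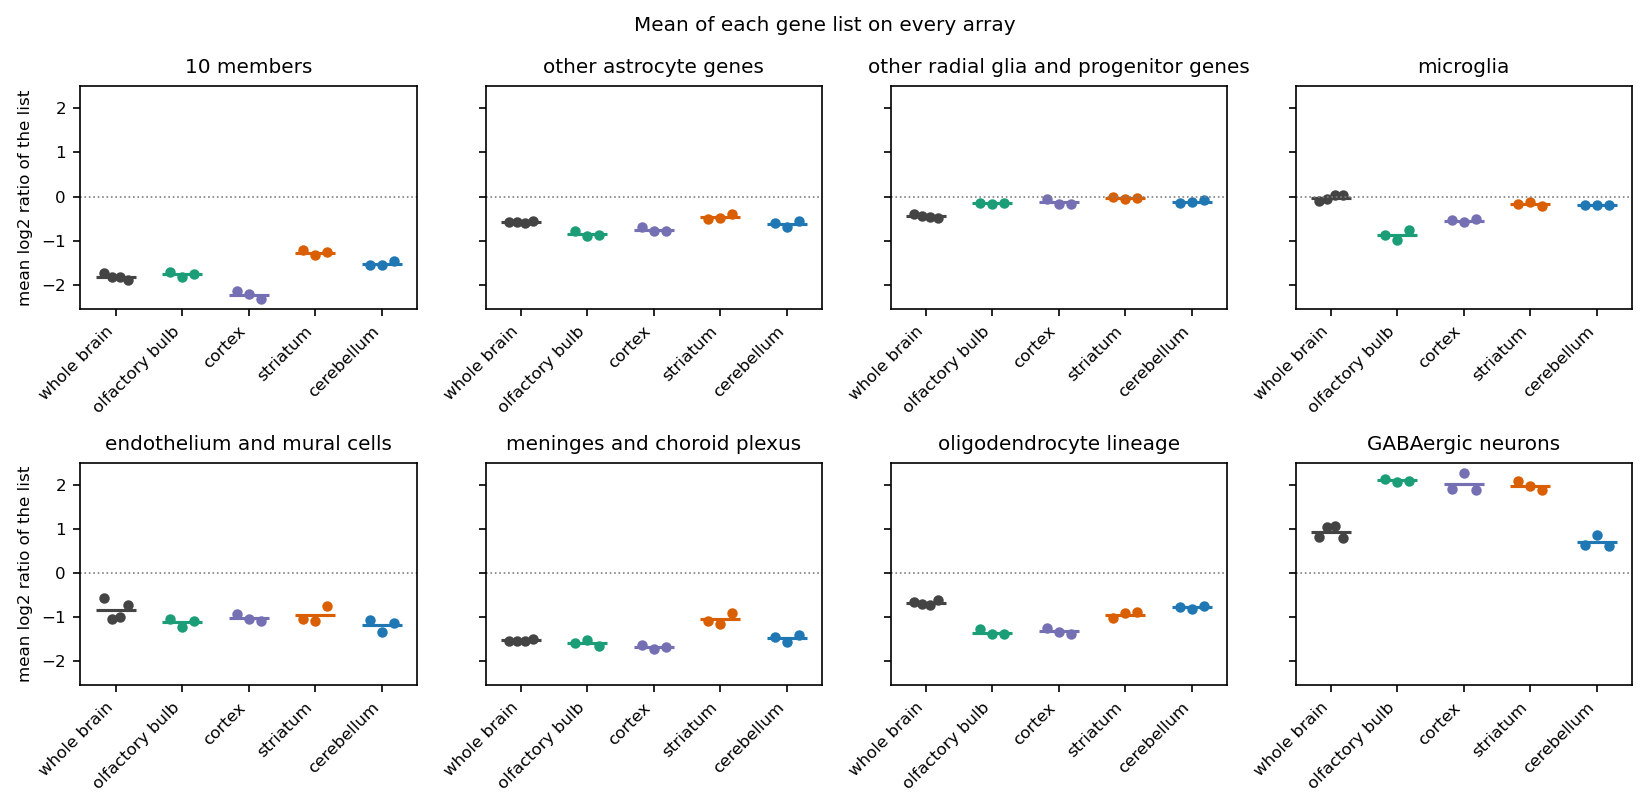
Mean log2 ratio of 8 gene lists (y axis) on each array by group; points are arrays and bars are group means. The 10 members lie between -2.31 and -1.22, lowest in cortex and highest in striatum, and the microglia list is lowest in olfactory bulb (-0.99 to -0.76).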

How the data were processed

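Sorted GABAergic cells and a total brain reference were measured on 16 two-colour Agilent arrays. Spot intensity and local background intensity were quantified with Agilent Feature Extraction 8.1.1.1, per the file headers. The deposited files also hold that software's own log10 ratio (sorted over reference), and the deposited table of values repeats it, so its scale is known. The direction rests on the dye names in the labels, Cy5 for sorted cells, although the label of the Cy3 reference calls it red. Dyes were not swapped.

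From the intensities, limma 3.58.1 (R 4.3.3; data.table package, version 1.17.8) gave log2 ratios after normexp background correction with offset 50, which shrinks ratios of dim spots, and loess within arrays. Each gene took its brightest probe, and was kept if well above background on 3 or more arrays in sorted cells or 8 or more in the reference. The 5 group means were fitted with lmFit and eBayes. A gene was called when its p, adjusted by Benjamini-Hochberg over all 27262 genes, was under 0.05. The common reference leaves out its own spread, and few arrays a group limit the precision. Motifs were counted in RefSeq promoters (GRCm38.p6), and figures drawn with matplotlib 3.10.9. The fit was also run on simulated ratios with independent noise, which says nothing about effects shared between the real arrays. The members and lists were chosen with earlier results of these data known. Named are all members, and of each list the 2 highest, the 2 lowest or a relative of a member.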

Additional observations from a re-analysis of the deposited data

Results flagged for a closer look

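The difference between sorted cells and the reference was not the same in the 4 regions for 9 of the 10 genes, by limma's moderated F test with Benjamini-Hochberg adjustment (57.5% of all genes). The range of region means on the log2 scale was 1.24 for Gja1, 0.85 for Slc1a2, 1.82 for Slc1a3, 0.67 for Glul, 1.18 for Fabp7, 1.78 for Dbi, 1.56 for Apoe, 0.95 for Aldoc and 1.08 for Vim. By the tests between pairs of regions, striatum was higher than each other region for Dbi, Apoe and Vim, and cerebellum was for Slc1a2. For Slc1a2, most of olfactory bulb minus cerebellum lay in the reference channel (0.41, beside -0.19 in the sorted-cell channel). Cortex was lower than each other region for Gja1, Slc1a3, Fabp7 and Dbi, and olfactory bulb was for Apoe. The other highest and lowest regions were not resolved from their neighbours. No whole-brain array stood far enough from the other 3 to be marked for any of the 10 genes, and groups of 3 were not examined for this.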

How the results depend on the processing

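The counts of genes lower than the reference and the count that differed among regions kept within 1.5 times of their values under every alternative run. The number lower in cerebellum than in the other regions was 2 here and 1 with the scanner software's own log ratio, with offset 0, with scaling between arrays and with the sorted-cell channel alone. Median centring gave 2 genes higher in cerebellum (5 here) and 2 lower in olfactory bulb (4 here). Scaling gave 1 gene lower in striatum (0 here), and the mean of all probes gave 2 lower in whole brain than in the regions (4 here). The sorted-cell channel alone, chosen after seeing the data, gave 5 lower in cortex (8 here) and 2 lower in olfactory bulb (4 here). Values that changed sign were Gfap at 0.24 and Apoe at 0.35 in whole brain over the reference under median centring, Slc1a3 in cerebellum minus other regions at 0.12 under scaling, and, under the mean of all probes, Slc1a2 in whole brain minus regions at 0.04 and Slc1a3 in olfactory bulb over the reference at 0.15. The cause was not tested. The scanner's own ratio moved the median of all genes in whole brain by 0.17. Leaving out each array in turn gave 7 to 8 lower in cortex, 2 to 3 higher and 3 to 4 lower in olfactory bulb, 1 to 2 lower in cerebellum and 4 to 5 higher in whole brain than in the regions. The other counts did not move: 9 lower than the reference in whole brain, 10 in each region, 5 higher in cerebellum, 0 higher in cortex, 8 higher and 0 lower in striatum, 4 lower in whole brain than in the regions and 9 that differed among regions. Of 1760 single values, 11 lost their call.

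Replicate numbers are shared by the groups. Same-numbered arrays of different groups deviated together at r from -0.112 to 0.228 (median 0.041, 30 pairs, 9 over 0.1). For arrays with different numbers r ran from -0.383 to 0.264 (median -0.012, 72 pairs, 14 over 0.1). Correlations this weak cannot settle whether the samples were paired. With a replicate block, 110 of 110 member values kept their call, with 9 genes differing among regions. A block for slide or scan session was not run, because each array had its own slide and the sessions split as whole brain and regions do. Signal over background limits Gja1, whose whole-brain value was -6.13 with the scanner's ratio, -5.89 with offset 0 and -3.66 with scaling.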
